A study of Mus musculus with 28 samples.

Results

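The complement genes examined here were C1qb, C4b, C3, Cfb, Cfd, Cfp, Serping1, Cd55 and C5ar1. They were picked by gene symbol, with no threshold on a measured value, from a table of 25251 genes, and all 9 were found in it. RNA was measured in ECs (CD45-Ter119-CD31+), in MSCs (CD45-Ter119-CD31-CD166-Sca1+) and in bone marrow MNCs of C57 BL6 mice aged 8 to 10 wk. The mice were either wild type (Flt3+/+) or homozygous Flt3-ITD knock-in mice, in which the tandem duplication sits in the endogenous Flt3 gene of every cell and makes the receptor constitutively active. Neither genotype carried a further allele or treatment in these samples. Each genotype had 5 EC, 5 MSC and 4 MNC libraries, which makes 28 in total, each made from 100 sorted cells (200 for MNCs). The methods call them biological replicates from 4 to 5 mice per genotype, from more than a single experiment for ECs and MSCs, and the labels do not say which library belongs to which experiment. The label for cell type reads bone lining cells also for MNCs, whereas the source and phenotype labels read bone marrow MNCs. Values of single genes are given as RPKM, the read count scaled to transcript length and library total, to set levels of different genes side by side. For C4b and Cd55 the length behind this scaling varied between libraries, as given below. Their levels can be set beside those of other genes only roughly.

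Complement is a cascade of plasma and membrane proteins that marks surfaces for removal, attracts leukocytes and can perforate membranes. The classical pathway begins when C1q (C1qb encodes one of its chains) binds a target and its proteases cleave C4 (C4b) and C2. The alternative pathway runs through factor B (Cfb), factor D (Cfd) and properdin (Cfp). Both routes cleave C3, and the small fragment later released from C5 acts on leukocytes through the receptor C5ar1. Host cells are guarded by inhibitors, among them the C1 inhibitor (Serping1) and decay-accelerating factor (Cd55). Liver makes most plasma complement, whereas macrophages, neutrophils and fibroblast-like stromal cells are known local sources.

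In GRCm38, the build of the transcripts the reads were aligned to, C3 (chr17:57203970-57228136), C4b (chr17:34728380-34743882) and Cfb (chr17:34856374-34862518) lie on the minus strand of chromosome 17. Serping1 (chr2:84765387-84775444), Cd55 (chr1:130439027-130462744), C1qb (chr4:136880129-136886187), C5ar1 (chr7:16246743-16259540) and Cfp (chrX:20925454-20931555) are also on the minus strand, and Cfd (chr10:79890853-79892655) is on the plus strand. C4b has a close copy, C4a, and 34.6% of the 51-base stretches of its longest annotated transcript occur unchanged in C4a. The 51-base length is that of the reads. For Cd55 the share found in its copy Cd55b (listed in the table as Daf2) was 13.1%. Since only uniquely placed reads had been kept, the counts of C4b and Cd55 rest on the remaining stretches, and their levels are uncertain to that extent. Cfb shared 81.4% of such stretches with a readthrough transcript, Gm20547, which is no gene of the table. The other 6 genes shared none.

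The stretches of 250 bases upstream of the transcription start are shown for the genes that were highest in, or shared with, MNCs, because they carry the blood-cell side of the pattern described below. They come from RefSeq (GRCm38.p6), which gave such a stretch for 6 of the 9 genes. RefSeq and the gene annotation used for the loci above place some starts differently, and most of the C5ar1 stretch lies inside the locus given above for that gene. Capitals mark matches, on either strand, to the core letters of a PU.1 site (GAGGAA) or to a relaxed C/EBP pattern (TTNNGNAA). Both factors are known regulators of myeloid genes. Of 32851 promoters of the same length, 23.3% held the PU.1 letters and 36.8% the C/EBP letters, so that a match is a description and not a binding site.
C3 (chr17:57228137-57228386, minus strand): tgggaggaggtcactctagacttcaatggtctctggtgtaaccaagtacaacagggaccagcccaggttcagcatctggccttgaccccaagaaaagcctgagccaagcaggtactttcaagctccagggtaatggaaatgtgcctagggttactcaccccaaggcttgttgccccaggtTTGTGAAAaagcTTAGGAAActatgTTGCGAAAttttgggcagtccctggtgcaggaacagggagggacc
Cfp (chrX:20931556-20931805, minus strand): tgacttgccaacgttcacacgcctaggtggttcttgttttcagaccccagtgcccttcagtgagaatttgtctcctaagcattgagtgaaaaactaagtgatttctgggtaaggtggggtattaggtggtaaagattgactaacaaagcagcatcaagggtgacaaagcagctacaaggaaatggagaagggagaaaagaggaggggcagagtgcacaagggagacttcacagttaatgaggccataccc
C5ar1 (chr7:16259339-16259588, minus strand): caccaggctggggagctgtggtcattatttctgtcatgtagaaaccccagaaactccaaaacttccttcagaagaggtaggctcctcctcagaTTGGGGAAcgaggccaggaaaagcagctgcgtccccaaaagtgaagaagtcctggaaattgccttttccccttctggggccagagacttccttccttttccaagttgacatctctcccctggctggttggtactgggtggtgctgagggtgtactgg
C1qb (chr4:136886201-136886450, minus strand): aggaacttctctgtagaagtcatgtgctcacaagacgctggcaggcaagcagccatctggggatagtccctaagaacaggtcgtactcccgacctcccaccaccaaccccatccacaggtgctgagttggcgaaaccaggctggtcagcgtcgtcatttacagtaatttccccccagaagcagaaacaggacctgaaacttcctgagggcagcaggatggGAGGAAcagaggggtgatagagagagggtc
C3 held 3 matches to the C/EBP pattern, beginning 70, 58 and 45 bases upstream of the start, and no match to the PU.1 letters. C5ar1 held 1 C/EBP match, C1qb held 1 match to the PU.1 letters 30 bases upstream of the start, and Cfp held neither. No pattern was common to the 4 windows.

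Library totals ranged from 6377013 to 33880743 counts, and 3 counts were taken as the floor of detection. The floor and the intervals given here take in counting error alone, since the cDNA was amplified and carried no molecular barcodes. The sorted populations carried the markers of their labels. Summed endothelial markers reached 1845 to 2654 RPKM in ECs against at most 29.2 elsewhere, and mesenchymal markers reached 28470 to 33030 RPKM in MSCs. Mesenchymal markers also summed to 3681 to 6374 RPKM in ECs, mostly through Ly6a and Cxcl12. Flt3 itself was read at 2.53 to 6.96 RPKM in wild-type MNCs and 6.91 to 14.81 RPKM in Flt3-ITD MNCs, and at most 1.37 RPKM in any EC or MSC library. Some libraries stood apart. Flt3-ITD EC replicate 2 had a neutrophil marker sum of 30040 RPKM, with 7 of 8 markers above the floor, whereas no other EC library exceeded 1321 RPKM (wild-type replicate 1). Flt3-ITD MSC replicate 5 had 6290 RPKM, against at most 506.2 RPKM in other MSCs. MNC replicates 1 and 2 of both genotypes carried immediate-early transcripts at 293.6 to 475.3 RPKM in sum, and replicates 3 and 4 at 19.2 to 32.2 RPKM. In bulk samples, fewer cells of a type and less RNA per cell cannot be told apart.

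Serping1 led in every MSC library, Cfp had the largest median share in MNCs, and C3 was abundant in both. In MSCs Serping1 alone made up 71.2% to 80.0% of the summed RPKM of the 9 genes in every library, followed by Cd55 with a median of 13.7% and C3 with 5.0%. In MNCs Cfp made up a median of 51.8% (31.1% to 74.0%), C5ar1 26.6% (5.44% to 44.3%) and C3 15.5% (14.3% to 30.3%). C5ar1 was above Cfp in wild-type MNC replicates 3 (206.18 against 144.93 RPKM) and 4 (189.57 against 185.40 RPKM). In ECs Cd55 (median 38.3%) and Serping1 (28.8%) had the largest medians, but their shares ran from 10.2% to 66.7% and from 0.396% to 68.1%, and that of Cfb ran from 0.974% to 83.8%. The plot of each gene by library shows these patterns.

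**Figure D1:**
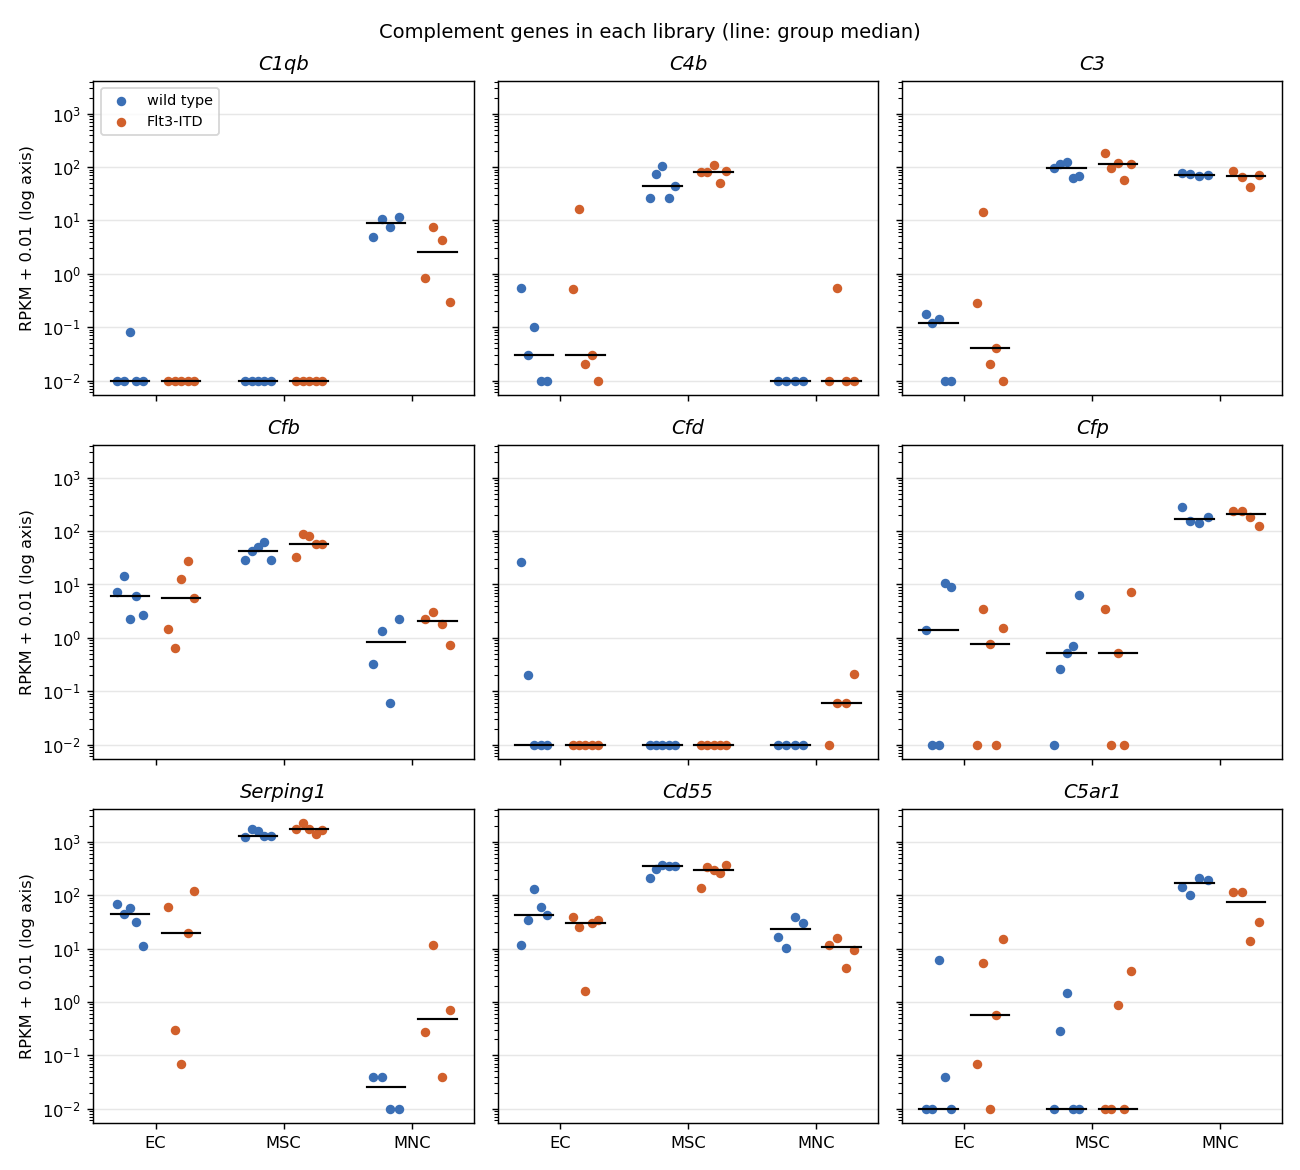
Each point is 1 library, plotted as RPKM + 0.01 on a log axis for ECs, MSCs and MNCs, with wild-type libraries in blue, Flt3-ITD libraries in orange and a black line at each group's median. Serping1 is at 1206.75 RPKM or above in all 10 MSC libraries, Cfp at 123.87 RPKM or above in all 8 MNC libraries, and C3 and C4b are near 0 in 9 of 10 EC libraries.

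The initiator C1qb was read in MNCs and in no other population above the floor. Wild-type MNCs gave 4.78, 10.61, 7.63 and 11.53 RPKM, and Flt3-ITD MNCs gave 0.81, 7.55, 4.28 and 0.29 RPKM. The 10 MSC libraries held no count for C1qb and the 10 EC libraries held 1. Over 149038942 counts MNCs gave 952 counts of C1qb, at least 562-fold more per read than MSCs when the floor is set over all MSC libraries together. Against the 1 count in ECs the ratio was 1290, with a 95% interval of 232 to 51100 from counting alone (Clopper-Pearson). The other chains of C1q were at lower mean levels in MNCs, with 0.528 ± 0.900 RPKM for C1qa, which was named after its values were seen, and 1.97 ± 1.91 RPKM for C1qc (SD, n = 8).

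C4b, the fragment-forming component of the classical pathway, was a gene of MSCs. Wild-type MSCs gave 25.85, 75.54, 104.08, 26.71 and 44.44 RPKM, and Flt3-ITD MSCs gave 81.81, 80.49, 111.63, 49.55 and 84.25 RPKM. All 4 wild-type MNC libraries held 0 counts, and in Flt3-ITD MNCs only replicate 2 held any (25 counts). ECs were at 0.53 RPKM or below in 9 of 10 libraries. The exception was Flt3-ITD EC replicate 2 with 16.36 RPKM (601 counts), the library with the high neutrophil marker sum. Of 9 mesenchymal markers in that library, 4 were above the floor, namely Ly6a (146676 counts), Cxcl12 (20713), Lepr (2689) and Pdgfra (51), each below the highest count in another EC library, and the other 5, among them Col1a1, Dcn and Lum, were at 0 or 1 count. The part of other cell types in its C4b level was not tested. The transcript length implied by count and RPKM for C4b ranged from 2067 to 2765 bases in MSCs and was 1189 bases in that EC library, whereas for C3 it stayed between 5221 and 5268 bases in all populations. The longest annotated transcript has 5379 bases for C4b and 5136 bases for C3. In that EC library 601 counts gave 16.36 RPKM for C4b, while 2295 counts gave 14.19 RPKM for C3. C4b thus reads higher in RPKM than C3 for the same number of counts.

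C3, the protein on which all pathways converge, was abundant in MSCs and in MNCs alike. Wild-type MSCs gave 94.83, 115.18, 126.89, 61.94 and 66.71 RPKM and Flt3-ITD MSCs 185.89, 96.30, 119.34, 57.80 and 115.55 RPKM. Wild-type MNCs gave 75.94, 73.52, 67.68 and 70.63 RPKM and Flt3-ITD MNCs 82.96, 64.76, 41.61 and 72.23 RPKM. The ranges overlap, and the difference between MSCs and MNCs was 0.69 ± 0.87 on the log2 scale (SE, edgeR adjusted p = 0.558). Of 10 EC libraries, 9 were at 0.27 RPKM or below. Flt3-ITD EC replicate 2 again stood out with 14.19 RPKM (2295 counts). In that library 0.0135 counts of C3 were read per count of the neutrophil marker S100a8, against 0.011 to 0.0155 in 6 MNC libraries, 0.0394 and 0.0539 in Flt3-ITD MNC replicates 3 and 4, and 0.00231 in wild-type EC replicate 1. The part of neutrophil RNA in the C3 level of that library was not tested.

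Cfb, the protease of the alternative convertase, was highest in MSCs, lower in ECs and lowest in MNCs. MSCs ranged from 28.88 to 87.22 RPKM (median 53.64, n = 10), above every EC library (0.64 to 27.96 RPKM, median 5.84) and every MNC library (0.05 to 3.01 RPKM, median 1.60). The EC and MNC ranges overlap. Within ECs the level varied widely between libraries of 1 genotype, with 1.46, 0.64, 12.70, 27.96 and 5.52 RPKM in Flt3-ITD ECs and 7.12, 14.42, 2.28, 6.16 and 2.70 RPKM in wild-type ECs.

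Cfd, the protease that activates factor B, was all but absent. One library, wild-type EC replicate 1, held 326 counts (26.28 RPKM), wild-type EC replicate 2 held 4 counts, and no other library exceeded 3 counts. The wild-type EC replicate 1 library also had the highest erythroid marker sum of the ECs (4203 RPKM). Its adipocyte marker sum, 14810 RPKM, lay within the range of the ECs (11780 to 18220 RPKM). That sum was mostly Fabp4, at 14613.9 RPKM in that library, at 11600 to 18010 RPKM in wild-type ECs and at 11710 to 15910 RPKM in Flt3-ITD ECs. Of the other adipocyte markers in that library, Lpl was at 101.83 RPKM, Pparg at 74.1 RPKM and Adipoq at 17.4 RPKM. Cebpa was at 0.11 RPKM and Plin1 at 0 RPKM. Pparg and Adipoq were the highest of the wild-type ECs, and Lpl was the lowest. Adipoq reached 30.93 RPKM among Flt3-ITD ECs, all of them at 0 for Cfd. The part of other cell types in the Cfd level of wild-type EC replicate 1 was not tested. The gene had too few counts for the edgeR comparisons, and the exact permutation test between genotypes gave p = 0.444 in ECs and 0.143 in MNCs. All 10 MSC libraries were at 0 counts.

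Cfp, which stabilises the alternative convertase, belonged to MNCs. Wild-type MNCs gave 280.75, 155.23, 144.93 and 185.40 RPKM and Flt3-ITD MNCs 239.92, 233.59, 187.32 and 123.87 RPKM. In ECs the values ran from 0 to 10.44 RPKM (median 1.08) and in MSCs from 0 to 7.27 RPKM (median 0.505). Every MNC library was above every EC and MSC library. The 2 highest MSC libraries were wild-type replicate 5 with 6.29 RPKM and Flt3-ITD replicate 5 with 7.27 RPKM, which also had the highest pan-leukocyte marker sums of their groups (143.2 and 342.6 RPKM). The next highest, Flt3-ITD MSC replicate 1 with 3.52 RPKM, had a pan-leukocyte sum of 1.05 RPKM, and the highest ECs, with 10.44 and 9.13 RPKM of Cfp, had sums of 16.72 and 23.97 RPKM. The part of leukocyte RNA in these values was not tested.

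Serping1, the inhibitor of the C1 proteases, was the most abundant of the 9 genes. Wild-type MSCs gave 1206.75, 1735.25, 1623.90, 1301.96 and 1290.39 RPKM, and Flt3-ITD MSCs gave 1760.09, 2213.17, 1706.89, 1423.78 and 1697.74 RPKM. Wild-type ECs gave 69.56, 44.69, 56.98, 31.31 and 11.25 RPKM. Flt3-ITD ECs were far more scattered, with 60.22, 0.29, 0.06, 19.23 and 120.03 RPKM. Wild-type MNC libraries held at most 1 count, and Flt3-ITD MNC replicate 2 held 428 counts (11.61 RPKM) while the other 3 Flt3-ITD MNC libraries were at 0.69 RPKM or below. That replicate also had the highest mesenchymal marker sum of the MNCs (194.4 RPKM, against 85.91 to 156.9 RPKM in the others), with 8 of 9 markers above the floor. The sum was mostly Ly6a, at 82.26 to 161.4 RPKM in Flt3-ITD MNCs, where Cxcl12 reached 25.87 RPKM and Lum 2.33 RPKM. Dcn, at 21730 RPKM or above in MSCs, was at 0 in all MNC libraries. The part of stromal RNA in the Serping1 level of that replicate was not tested. The populations MSC and EC do not overlap, while the lowest ECs fall within the MNC range.

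Cd55, which dissociates the convertases on the cell surface, was read in every library. MSCs ranged from 135.24 to 374.03 RPKM (median 326.1, n = 10), all above the highest EC library. Wild-type ECs gave 11.87, 33.76, 131.84, 60.72 and 41.84 RPKM and Flt3-ITD ECs 38.47, 25.30, 1.60, 30.48 and 33.95 RPKM. MNCs ranged from 4.22 to 39.26 RPKM (median 13.8, n = 8), within the range of ECs. The implied transcript length varied from 1825 to 2536 bases between EC libraries and from 1952 to 2149 bases between MSC libraries, so that RPKM and count did not scale alike across libraries.

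C5ar1, the receptor for the C5 fragment, was a gene of MNCs, with 144.11, 100.83, 206.18 and 189.57 RPKM in wild type and 116.46, 115.42, 13.78 and 31.42 RPKM in Flt3-ITD. Of the ECs, 3 libraries held over 100 counts. They were Flt3-ITD replicate 5 (15.20 RPKM), wild-type replicate 3 (6.22 RPKM) and Flt3-ITD replicate 2 (5.41 RPKM). The remaining 7 EC libraries were at 0.56 RPKM or below. Of the MSCs, Flt3-ITD replicate 5 was highest with 3.81 RPKM. The lowest MNC library (13.78 RPKM) lay below the highest EC library (15.20 RPKM), so that MNCs and ECs overlap, while MNCs and MSCs do not.

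Populations were compared with edgeR's quasi-likelihood test in 1 model of all 28 libraries, averaged over genotypes. A gene was called when its Benjamini-Hochberg adjusted p was below 0.1 and its mean RPKM differed by 1 or more on the log2 scale. Low-count genes were filtered over all 28 libraries together, so that C1qb was tested between MSCs and ECs through its counts in MNCs. Of the 8 genes tested, 5 were called higher in MSCs than in ECs (C3, C4b, Cfb, Serping1 and Cd55) and none lower, against 16.5% higher and 16.1% lower of all genes tested. The log2 fold changes were 7.93 ± 1.11 for C3 (SE, adjusted p = 3.89e-06), 7.05 ± 1.22 for C4b (0.000105), 5.52 ± 0.94 for Serping1 (5.67e-05), 3.12 ± 0.46 for Cd55 (8.77e-06) and 2.94 ± 0.59 for Cfb (0.000349). For each of these 5 genes the MSC and EC ranges did not overlap, as for 8.36% of all genes. Cfp and C5ar1 were not called, with log2 fold changes of -0.082 ± 0.997 and -1.85 ± 1.30. Without Flt3-ITD EC replicate 2 the estimates were 10.84 for C3 and 9.23 for C4b, so that 1 library set these sizes but not the calls, and without wild-type EC replicate 1 that of C4b was 7.94. The median over 7 genes, C1qb being at or under the floor in both populations, was 3.12, against 0.014 over all genes.

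Between MSCs and MNCs 7 of 8 genes were called. C4b, Cfb, Serping1 and Cd55 were higher in MSCs, where 22.2% of all genes were, and Cfp, C1qb and C5ar1 were higher in MNCs, where 22.0% were. The log2 fold changes were 12.83 ± 1.46 for Serping1 (adjusted p = 7.89e-08), 12.03 ± 1.79 for C4b, 5.29 ± 0.73 for Cfb and 4.34 ± 0.54 for Cd55. On the MNC side they were -6.65 ± 1.26 for Cfp (adjusted p = 0.00011) and -7.50 ± 1.66 for C5ar1 (adjusted p = 0.000569). Since wild-type MNCs held no count of C4b and at most 1 of Serping1 per library, the fitted sizes for these 2 genes against MNCs depend on the prior count and are not measured folds. Without Flt3-ITD MNC replicate 2 they were 14.48 for Serping1 and 14.89 for C4b. The estimate of C5ar1 was -8.47 without Flt3-ITD MSC replicate 5 and -8.61 without wild-type MSC replicate 3, and that of Cfp was -7.65 without wild-type MSC replicate 5. All 7 had ranges that did not overlap, as did 21.5% of all genes, and C3 was not called. The median over the 8 genes was 2.52 against -0.021 over all genes.

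Between ECs and MNCs all 8 genes tested were called, with C4b, Cfb, Serping1 and Cd55 higher in ECs (23.0% of all genes were) and C3, Cfp, C1qb and C5ar1 higher in MNCs (21.9% were). C4b was at 0.53 RPKM or below in 9 of 10 ECs and above the floor in 1 MNC library, so its call rests on few libraries. This comparison was the least even among libraries. Only C3, Cfp and C1qb had ranges that did not overlap (18.5% of all genes), and 7 of 8 genes were called in wild-type libraries alone (37.0% of all genes) but 3 of 7 in Flt3-ITD libraries alone (33.7% of all genes). The log2 fold changes were 7.31 ± 1.23 for Serping1 (adjusted p = 2.58e-05), 2.35 ± 0.63 for Cfb, 1.22 ± 0.47 for Cd55 (adjusted p = 0.0346), -7.24 ± 1.09 for C3, -6.57 ± 1.26 for Cfp and -5.66 ± 1.53 for C5ar1. C4b, at 4.98 ± 1.65 (adjusted p = 0.0168), was no longer called without Flt3-ITD EC replicate 2 (2.79, adjusted p = 0.13), nor was Cd55 without wild-type EC replicate 3 (0.88, adjusted p = 0.104). Single libraries also set other sizes without ending the call. C3 was at -10.15 without Flt3-ITD EC replicate 2, C5ar1 at -9.39 without wild-type EC replicate 3 and -6.32 without Flt3-ITD EC replicate 5, and Serping1 at 8.96 without Flt3-ITD MNC replicate 2. C4b was at 7.83 without Flt3-ITD MNC replicate 2 and 4.12 without wild-type EC replicate 1. The median over the 8 genes was -2.22, against 0.0 over all genes.

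The wider cascade was followed through 52 further complement genes, all found in the table, of which 37 were tested between populations. Of 12 tested initiators of the classical and lectin pathways, 8 were higher in MSCs than in ECs and 1 lower, and of 13 tested regulators 6 were higher and 2 lower. Of the whole list, 17 of 37 were called higher in MSCs (45.9%) and 6 lower (16.2%). Of all genes tested 16.5% were called higher and 16.1% lower, so the share of the list called lower was near that of all genes. Clu, a regulator of the terminal complex, was at 3778 ± 2060 RPKM in MSCs (SD, n = 10), 236.7 ± 105.2 RPKM in ECs and 0.993 ± 1.234 RPKM in MNCs (n = 8). C1s, a protease of the C1 complex, was at 164.4 ± 32.6 RPKM in MSCs, 8.01 ± 18.65 RPKM in ECs and 0.0187 ± 0.0295 RPKM in MNCs. C4a was at 37.7 ± 16.3 RPKM in MSCs and at most 3.03 RPKM in any other library. C7, a component of the terminal complex, ran from 0.04 to 487.2 RPKM between MSC libraries (median 106.6) and reached 0.03 RPKM at most elsewhere.

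Of 8 tested receptors, 6 were called lower in MSCs than in MNCs, as were 22.0% of all genes. Itgb2, the shared chain of the leukocyte integrins that bind C3 fragments, was at 264.2 ± 45.6 RPKM in MNCs (SD, n = 8) and at most 16.8 RPKM in ECs, the highest being in Flt3-ITD ECs, and 3.82 RPKM in MSCs. The lectin-pathway ficolin Fcnb was at 518.4 ± 198.3 RPKM in MNCs, with medians of 0.015 RPKM in ECs and 0 in MSCs. Against ECs the largest differences on the MNC side were those of Fcna, at least 220-fold higher in MNCs, C1qc, at least 145-fold higher, and Itgax, at -8.47 on the log2 scale. ECs stood out by Cd93, a surface protein first described as a C1q receptor, at 477.5 ± 101.6 RPKM (SD, n = 10) against 0.788 ± 1.171 RPKM in MSCs and 27.6 ± 12.4 RPKM in MNCs (n = 8), and by Cd59a, an inhibitor of the membrane attack complex, at 133.6 ± 38.9 RPKM against 11.1 ± 9.8 RPKM in MSCs. Vtn, another inhibitor of that complex, was at 0 in all MNC libraries and ran from 0 to 76.7 RPKM in ECs. Cpn1, which inactivates the small fragments, was among the 3 largest increases in MSCs over ECs, but its median in MSCs was 0.01 RPKM and its highest value 13.26 RPKM. Between ECs and MNCs, 14 of the list's 37 genes were called higher in ECs (37.8%, all genes 23.0%) and 8 lower (21.6%, all genes 21.9%). The share called lower in ECs was thus near that of all genes. Between MSCs and MNCs 17 were called higher in MSCs (45.9%, all genes 22.2%) and 11 lower (29.7%, all genes 22.0%). The median over the list was 1.61 for MSCs against ECs, where that over all genes was 0.014. It was 0.74 for ECs against MNCs (all genes 0.0) and 1.53 for MSCs against MNCs (all genes -0.021). Genes at or under the floor in both populations were left out, 2, 2 and 0 in this order. Genes at 0 in 1 population were set to their bound, 0, 4 and 4 in this order.

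**Figure D2:**
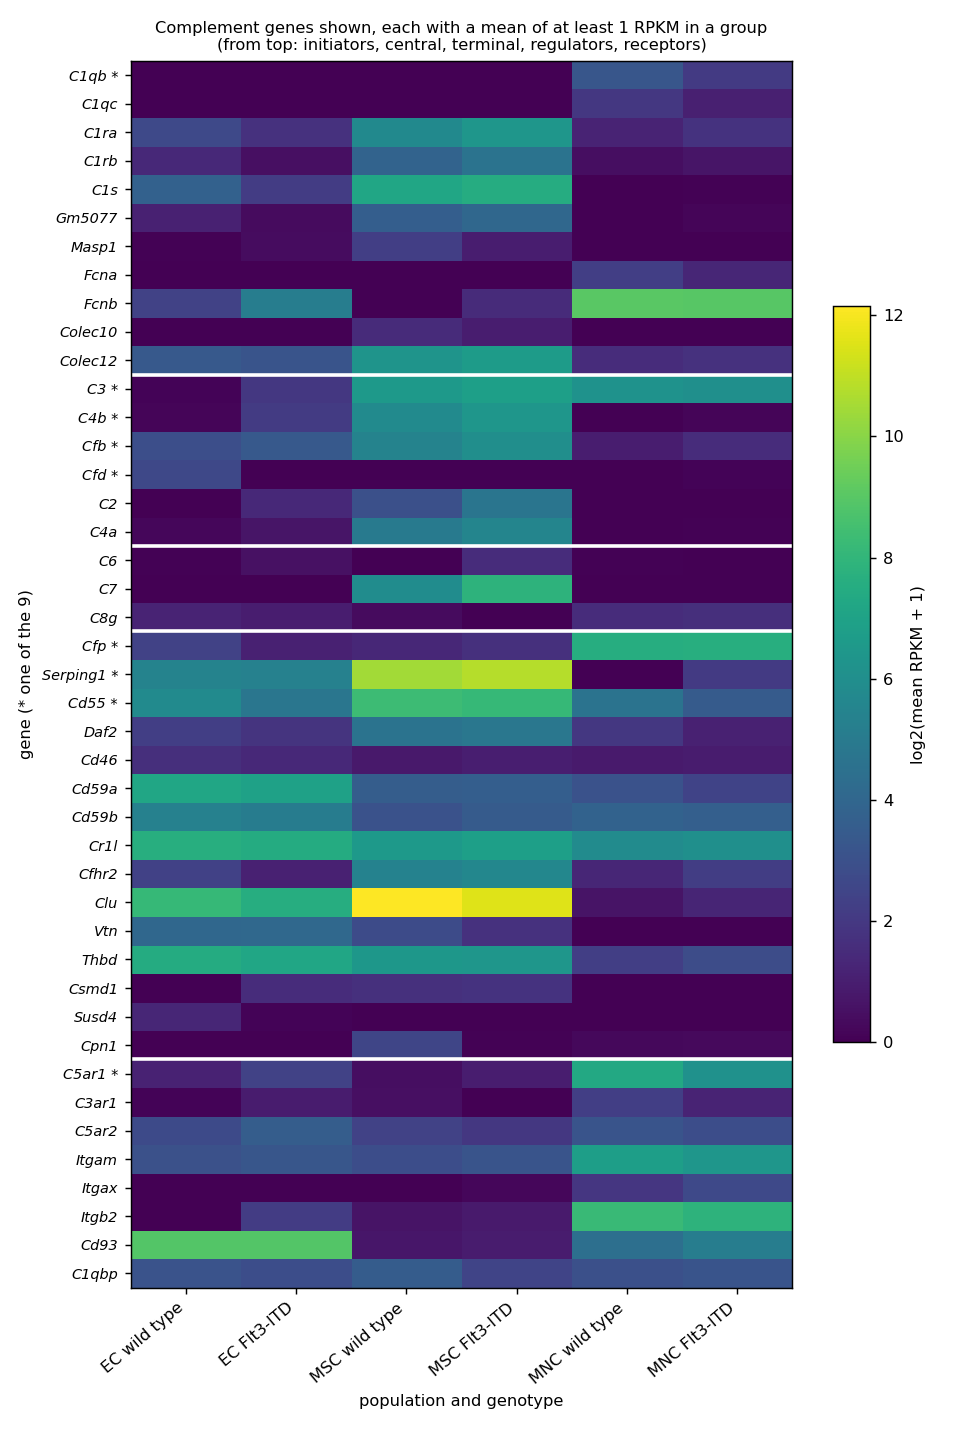
Mean level of 43 complement genes that reached 1 RPKM in any group, as log2(mean RPKM + 1) on the colour scale, with a column for each population and genotype and rows ordered from initiators to receptors. Stars mark the 9 genes of the panel. Bright rows in the MSC columns include Clu, Serping1 and Cd55, and bright rows in the MNC columns include Fcnb, Itgb2, Cfp and C5ar1.

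For each gene the 2 others with the most similar pattern were taken among 13727 genes with a mean of at least 1 RPKM, by Pearson's r of log2(RPKM + 1) over the 28 libraries. These libraries come from 3 populations, and the correlations largely describe which population a gene marks. C4b was most like C4a (r = 0.991) and Ccl7 (0.985). C4b and C4a, and Cd55 and Daf2, are the pairs with shared sequence named above. Cd55 was most like its copy Daf2 (0.972) and Nupr1 (0.910). C3, present in both MSCs and MNCs, was most like Celf2 (0.935) and Il18 (0.933), and Serping1 was most like Prelp (0.956) and Timp2 (0.948). Cfb was most like Colec12 (0.934) and Igfbp5 (0.925). C5ar1 was most like Gca (0.966) and Gm19897 (0.955), Cfp was most like AK083149 (0.962) and Pira2 (0.959), and C1qb was most like Aqp9 (0.929) and Asprv1 (0.927). Cfd, whose level rests on 1 library, had no close match (AA415398, 0.786; 5930430L01Rik, 0.738).

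The genotypes were then compared within each population, to ask whether the complement program of niche cells or blood cells differed in Flt3-ITD mice. No gene of the panel was called by edgeR's quasi-likelihood test in any population. By this test the background was also low: 0.0081% of all genes tested were called in ECs, 0.0295% in MSCs and 0.0144% in MNCs. Each genotype comparison of single values used the exact two-sided permutation test on RPKM, whose smallest possible p was 0.00794 with 5 against 5 libraries and 0.0286 with 4 against 4.

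In ECs DESeq2 called 108 and edgeR's exact test 16 of all 12351 genes tested. Of the panel 5 genes were tested and 0 were called by edgeR, by DESeq2 or by edgeR's exact test. Of these 5 genes, 0 had an unadjusted p below 0.05 in the main test (4.99% of all genes did). The largest estimate was for C3, with a log2 fold change of 5.17 ± 2.39 (SE, edgeR adjusted p = 0.9998). It rests on Flt3-ITD replicate 2, without which C3 had too few counts to be tested. The exact permutation test gave p = 0.516 for C3. Cd55 was lower in Flt3-ITD ECs on average, 26.0 ± 14.4 RPKM against 56.0 ± 45.9 RPKM (SD, n = 5 each, exact p = 0.183), and the wild-type mean is raised by replicate 3 (131.84 RPKM). Serping1 averaged 39.97 ± 51.03 RPKM in Flt3-ITD and 42.8 ± 22.6 RPKM in wild type (n = 5 each, exact p = 0.921). Cfb averaged 9.66 ± 11.29 RPKM and 6.54 ± 4.89 RPKM (exact p = 0.683), and Cfp 1.15 ± 1.45 RPKM and 4.19 ± 5.16 RPKM (exact p = 0.365). No gene of the panel had ranges that did not overlap, as did 1.14% of all genes. The median log2 fold change of the 5 genes was -0.12, against -0.015 over all genes.

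In MSCs DESeq2 called 61 and edgeR's exact test 19 of all 13574 genes tested. Of the panel 6 genes were tested and 5 had a higher estimate in Flt3-ITD, but 0 were called by any of the 3 tests. Serping1 came closest, at 1760 ± 285 RPKM against 1432 ± 233 RPKM (SD, n = 5 each), a log2 fold change of 0.35 ± 0.15 (SE) with an unadjusted p of 0.0415 (4.24% of all genes were below 0.05) and an edgeR adjusted p of 0.999. Of the Flt3-ITD libraries 2 were above all wild-type libraries, and the exact permutation test gave p = 0.0635. C4b averaged 81.5 ± 22.0 RPKM against 55.3 ± 33.9 RPKM (exact p = 0.159), Cfb 63.0 ± 21.6 RPKM against 42.4 ± 14.1 RPKM (exact p = 0.135) and C3 115.0 ± 46.5 RPKM against 93.1 ± 28.7 RPKM (exact p = 0.444). Cd55 averaged 280.2 ± 92.7 RPKM against 317.8 ± 65.5 RPKM (exact p = 0.468). All these ranges overlap. Marker sums of other cell types also differed between the genotypes, with osteoblast markers at 1827 to 3552 RPKM (median 2296) in wild-type and 187.2 to 2857 RPKM (median 1436) in Flt3-ITD MSCs, and adipocyte markers at 25.43 to 58.15 RPKM (median 44.11) and 27.93 to 219.4 RPKM (median 85.58). Their part in the estimates was not tested. The median log2 fold change of the 6 genes was 0.46, against 0.030 over all genes.

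Of 25 genes of the wider list tested in MSCs, 0 were called by edgeR or DESeq2, 4 had an unadjusted p below 0.05 as did 4.24% of all genes, and 3 had ranges that did not overlap, as did 0.914% of all genes. These 3 were C1ra, C1rb and Colec12, which were also the 3 with the lowest p. C1ra, which encodes a C1r protease, ranged from 66.39 to 105.25 RPKM in Flt3-ITD MSCs and from 43.91 to 58.86 RPKM in wild type, with a log2 fold change of 0.64 ± 0.17 (SE, edgeR adjusted p = 0.999). Its close copy C1rb ranged from 19.14 to 34.23 RPKM and from 10.83 to 15.00 RPKM (0.86 ± 0.25). How much sequence C1ra and C1rb share was not measured. Colec12, a scavenger collectin, ranged from 86.92 to 110.93 RPKM and from 55.13 to 86.83 RPKM (0.43 ± 0.17). None passed the adjustment over all genes. The ranges of the other C1 proteases overlap, with C1s at 132.91 to 207.2 RPKM and 112.42 to 173.65 RPKM and Gm5077 at 10.61 to 19.49 RPKM and 7.56 to 13.9 RPKM. In this list 18 of 25 estimates were above 0 with a median of 0.37, against a median of 0.030 over all genes. In ECs 13 of 16 tested genes of the list had estimates below 0, with a median of -0.29 against -0.015 over all genes. Of these 16 genes, 0 were called by the 3 tests and 0 had an unadjusted p below 0.05. The lowest p values there were those of C5ar2 (5.55 ± 2.84 RPKM in wild type and 11.1 ± 5.4 RPKM in Flt3-ITD), Clu (284.4 ± 118.4 RPKM and 189.1 ± 72.1 RPKM) and C1rb (SD, n = 5 each).

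In MNCs 6 genes were tested and 0 were called by edgeR. DESeq2 called Cd55 (log2 fold change -1.55 ± 0.51, adjusted p = 0.081) along with 1.9% of all genes. In the main test Cd55 had a log2 fold change of -1.53 ± 0.55 (SE, edgeR adjusted p = 0.419) and was the 1 gene of the panel with an unadjusted p below 0.05, as for 10.4% of all genes. It averaged 10.3 ± 4.9 RPKM in Flt3-ITD and 23.9 ± 12.9 RPKM in wild type (SD, n = 4 each, exact p = 0.114). C5ar1 averaged 69.3 ± 54.4 RPKM against 160.2 ± 47.5 RPKM (-1.44 ± 0.65, adjusted p = 0.478, exact p = 0.0857). C1qb averaged 3.23 ± 3.38 RPKM against 8.64 ± 3.06 RPKM (-1.62 ± 0.85, adjusted p = 0.526, exact p = 0.0571). Cfp (196.2 ± 53.6 RPKM against 191.6 ± 61.9 RPKM, exact p = 0.914) and C3 (65.4 ± 17.5 RPKM against 71.9 ± 3.6 RPKM, exact p = 0.6) differed by less than the SD of the Flt3-ITD libraries. Cfb averaged 1.96 ± 0.96 RPKM against 0.985 ± 1.002 RPKM (exact p = 0.171). Serping1 had too few counts to be tested by edgeR, and its exact permutation p was 0.0857. No gene of the panel had ranges that did not overlap, as did 6.71% of all genes, and the median log2 fold change was -0.89 against -0.0053 over all genes.

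The MNC differences were not alike in all libraries. In replicates 1 and 2, C5ar1 averaged 115.9 RPKM in Flt3-ITD and 122.5 RPKM in wild type, whereas in replicates 3 and 4 it averaged 22.6 RPKM and 197.9 RPKM. Cd55 averaged 13.8 RPKM and 13.5 RPKM in replicates 1 and 2, and 6.79 RPKM and 34.4 RPKM in replicates 3 and 4. C1qb was lower in Flt3-ITD in both pairs, at 4.18 RPKM against 7.70 RPKM and at 2.29 RPKM against 9.58 RPKM. C3 averaged 73.9 RPKM against 74.7 RPKM in the first pair and 56.9 RPKM against 69.2 RPKM in the second. In edgeR fits of replicates 3 and 4 alone, 2 genes of the panel (C5ar1 and Cd55) and 6.73% of all genes were called, and in replicates 1 and 2 alone 0 genes of the panel, 0 of them at an unadjusted p below 0.05, and 0.0% of all genes. This split was chosen after the values were seen, so these calls restate the values and are no independent test. With the pair of replicates as a term, the estimate was -1.82 ± 0.77 for C5ar1 (adjusted p = 0.411) and -1.38 ± 0.62 for Cd55 (adjusted p = 0.43). The labels name no batch, and whether the genotype effect differed between the pairs was not tested.

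Marker levels also differed between MNC libraries. The neutrophil marker sum was 43650 and 59820 RPKM in Flt3-ITD MNC replicates 3 and 4 and 156400 to 199700 RPKM in the other 6 MNC libraries, with all 8 markers above the floor in every one. The sum is carried by abundant genes such as S100a8 (median 75790 RPKM in wild type and 45100 RPKM in Flt3-ITD), whereas Elane (614.2 and 1519 RPKM) and Mpo (473.7 and 1818 RPKM), genes of immature neutrophils on the same list, had the higher median in Flt3-ITD. The erythroid marker sum was 144700 and 131000 RPKM in wild-type replicates 3 and 4, 2150 and 8712 RPKM in Flt3-ITD replicates 3 and 4, and 92.8 to 37530 RPKM in replicates 1 and 2. The macrophage sum was 206.5 to 364.4 RPKM in wild type and 344.1 to 666.1 RPKM in Flt3-ITD, with overlapping ranges, while C1qb had the lower mean in Flt3-ITD. C1qb was at 0.81 RPKM in Flt3-ITD replicate 1, where the neutrophil sum was 179900 RPKM. The part of these cell types in the differences of C5ar1, Cd55 and C1qb was not tested.

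**Figure D3:**
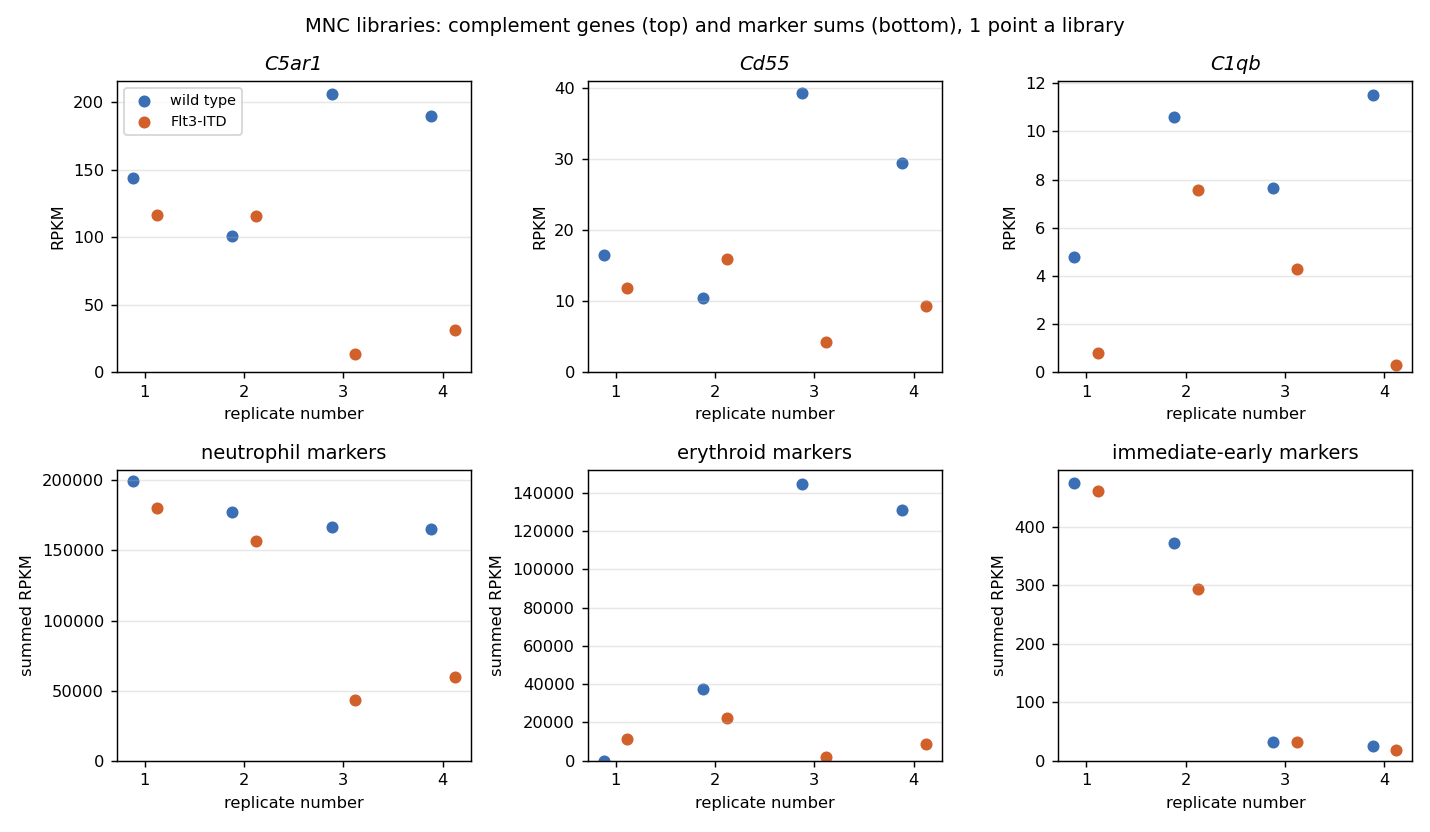
Each point is 1 MNC library, by replicate number and genotype, with RPKM of C5ar1, Cd55 and C1qb in the upper row and summed RPKM of neutrophil, erythroid and immediate-early markers in the lower row. C5ar1 is 13.78 and 31.42 RPKM in Flt3-ITD replicates 3 and 4 and above 100 RPKM in the other 6 libraries, and neutrophil markers are lowest in the same 2 libraries.

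Of 23 tested genes of the wider list in MNCs, 0 were called by edgeR, DESeq2 or edgeR's exact test. Of all 13926 genes tested, DESeq2 called 265 and the exact test 146. In the main test 3 genes of the list had an unadjusted p below 0.05, as did 10.4% of all genes. The integrin chains Itgb2 (log2 fold change -0.58 ± 0.22) and Itgam (-0.65 ± 0.26) had lower estimates in Flt3-ITD, with means of 231.1 ± 38.9 RPKM against 297.4 ± 20.2 RPKM and 81.5 ± 25.8 RPKM against 111.9 ± 3.7 RPKM (SD, n = 4 each, edgeR adjusted p = 0.419 and 0.443). Itgam was the 1 gene of the list whose ranges did not overlap, as for 6.71% of all genes. The median over the list was -0.016, against -0.0053 over all genes.

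Whether the genotype effect differed between populations was tested in the model of all libraries. No gene of the panel passed at an adjusted p below 0.1 for MSCs against ECs (0.379% of all genes did), for ECs against MNCs (0.0118%) or for MSCs against MNCs (0.00592%). At an unadjusted p below 0.05 there were 1, 2 and 1 genes of 8, where 10.6%, 8.23% and 5.94% of all genes were. They were C3 in MSCs against ECs (edgeR adjusted p = 0.255), C3 and Serping1 in ECs against MNCs (adjusted p = 0.407 and 0.329) and Serping1 in MSCs against MNCs (adjusted p = 0.477). In ECs C3 exceeded 13 counts in Flt3-ITD replicate 2 alone, and in wild-type MNCs Serping1 was at 1 count or 0.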

How the data were processed

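Libraries were prepared from sorted cells with the SMARTer Ultra Low RNA kit, which does not mark strand, and sequenced as single-end 51-base reads. The authors aligned reads with Bowtie to mm10 transcripts, discarded reads without a unique match, and quantified genes with RSEM (versions not given in the sources used here). The authors deposited a table of read counts per gene, whole numbers that were used as counts, and a table of RPKM. All value columns were matched to samples (0 unmapped), and no pair of libraries was identical. The labels name no culture or litter, so p-values measure the spread between these libraries.

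Counts were tested with edgeR 4.0.16 (TMM, filterByExpr, quasi-likelihood) in R 4.3.3, within each population for genotype and in 1 model of 28 libraries for populations and interactions. A call needed an adjusted p below 0.1 together with a difference of 1 or more between log2 mean RPKM values (0.01 added), and interactions needed the adjusted p alone. Alternatives were DESeq2 1.42.0, edgeR's exact test, RLE size factors, no filter, a replicate block, 1 genotype only and leaving out each library. Single genes were compared by 25 exact two-sided permutation tests on RPKM (scipy 1.17.1). The steps were tested on simulated data. Loci came from GENCODE, and Cd55b and C1s2 were looked up as Daf2 and Gm5077. Of the wider list, the text names the 3 largest called changes in each direction between populations, the 3 lowest p values between genotypes and genes whose genotype ranges did not overlap. An item that this rule would name is not reported here. The genes and lists were chosen with earlier results of these data known.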

Additional observations from a re-analysis of the deposited data

Results flagged for a closer look

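Of 46 groups of 4 or 5 libraries in which a gene of the panel was read, 11 (23.9%) held a library far from the others by Dixon's test at the 95% level, where chance flags about 1 in 20 groups (5%). All 11 were high values. The chance rate is that for normally distributed values, whereas RPKM cannot fall below 0 and many of these libraries are at 0, so the share of groups singled out is not read as an excess.

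Flt3-ITD EC replicate 2 stood apart for C3 (14.19 RPKM, next 0.27) and for C4b (16.36 RPKM, next 0.50), and it had the highest neutrophil marker sum of the ECs, 30040 RPKM. MNC libraries held at most 25 counts of C4b. Wild-type EC replicate 1 stood apart for Cfd (26.28 RPKM, next 0.19) and for C4b (0.53 RPKM, next 0.09). Wild-type EC replicate 3 stood apart for C5ar1 (6.22 RPKM, 228 counts, next 0.03) and for C1qb, where 0.07 RPKM was 1 count.

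Among MSCs, wild-type replicate 5 stood apart for Cfp (6.29 RPKM, next 0.70), wild-type replicate 3 for C5ar1 (1.48 RPKM, next 0.28) and Flt3-ITD replicate 5 for C5ar1 (3.81 RPKM, next 0.86). The last had the highest neutrophil marker sum of the MSCs, 6290 RPKM. Among MNCs, Flt3-ITD replicate 2 stood apart for Serping1 (11.61 RPKM, 428 counts, next 0.69) and for C4b (0.53 RPKM, 25 counts, next 0). The part of other cell types in these values was not tested.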

How the results depend on the processing

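The numbers of genes called were within 1.5 times the main count in 92 of 96 comparisons with an alternative. The exceptions were 3 panel genes called between ECs and MNCs in Flt3-ITD libraries only, 1 between genotypes in MNCs by DESeq2, and, in MNC replicates 3 and 4 only, 2 panel genes and 1 gene of the wider list. Leaving out 1 library at a time gave 7 to 8 panel genes and 20 to 25 wider genes called between ECs and MNCs, 5 and 22 to 24 between MSCs and ECs, 7 and 28 to 31 between MSCs and MNCs, and 0 between genotypes.

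No panel gene whose direction turned was called in the main test. In MNC replicates 1 and 2 only, the genotype difference was 0.00247 for C3, 0.13 for Cfp and 0.00028 for Cd55 on the log2 scale, and in replicates 3 and 4 only it was -0.22 for Cfb. Cfp between MSCs and ECs was 0.035 by DESeq2, 0.98 in Flt3-ITD libraries only and 0.0033 with RLE size factors. Without single libraries the genotype difference ran from -0.327 to 1.12 for Cfb and -1.11 to 0.20 for Serping1 in ECs, from -0.54 to 2.58 for Cfp and -0.24 to 0.071 for Cd55 in MSCs, and from -0.29 to 0.047 for Cfp in MNCs. Between MSCs and ECs it ran from -1.07 to 0.41 for Cfp and from -2.96 to 1.88 for C5ar1. The cause was not tested.

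With the replicate block the numbers of panel genes called were 8, 5 and 7 between populations and 0 between genotypes, as without it, and Cfp in MSCs turned to -0.88. Deviations of same-numbered libraries had small correlations (r from -0.137 to 0.0786), and the numbers were not taken as a pairing. Some structure was shared, however. Between wild-type and Flt3-ITD MSCs all 5 values were above 0 (0.0245 to 0.0786), with a median of 0.0492 against -0.018 for other pairs. MNC replicates of both genotypes also shared their level of immediate-early transcripts by number, as given above. Values at or under 3 counts are at the limit of the depth.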
